A study of Homo sapiens with 16 samples.

Results

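The downstream-of-gene (DoG) regions of IFT52, PPP2CA and EIF2A were, under DoG-inducing conditions, over 25 times as long in the SERIPH 2nd-step fraction as in hiAGPC. They are 3 of the 3505 genes with a DoG region in any library, and the 3 highest of the 1290 DoGs that both replicates of both preparations listed. The 3 DoGs were chosen by these measured lengths, so the length ratio and the FPKM of the same libraries are given as a description, with no test. HEK293 cells, an established line from human embryonic kidney with a wild-type genotype in every group, were exposed for 9 h to 200 mM sorbitol, an osmotic stressor, together with 100 µg/mL cycloheximide, a translation inhibitor (the DoG-inducing condition), or received fresh medium with neither agent (control). Since both agents were given together, their separate effects cannot be told apart. RNA of each condition was prepared in 4 ways. Conventional AGPC (acid guanidinium-phenol-chloroform) extraction takes the aqueous phase, and hiAGPC heats the lysate at 55 °C first, which releases semi-extractable RNA, the RNA that ordinary phase separation leaves behind. SERIPH divides a lysate into a 1st-step fraction, the aqueous phase, and a 2nd-step fraction, recovered by heating from the washed interphase. Each of the 8 groups had 2 biological replicates, which gave 16 stranded libraries depleted of rRNA, and the SERIPH libraries were built from 100 to 500 ng of 1st-step RNA and 5 to 50 ng of 2nd-step RNA. The sources used here give a nominal sequencing depth for the study but no depth per library, and the files hold DoG regions only, so markers of the cell line were not checked.

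A DoG is RNA made when RNA polymerase II fails to terminate at the end of a gene and goes on transcribing the DNA beyond it. Osmotic stress is a known trigger, and such RNA stays in the nucleus near its site of synthesis. IFT52 encodes a core subunit of intraflagellar transport complex B, which carries cargo into cilia. PPP2CA encodes the alpha catalytic subunit of protein phosphatase 2A (PP2A), a major serine/threonine phosphatase. EIF2A encodes a monomeric initiation factor that can bring initiator tRNA to the ribosome and is distinct from the trimeric factor eIF2.

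The sequences at the gene ends are shown because all 3 DoGs begin there, each beside the end of the first protein-coding gene that starts past it on its strand, which the longest region ran past. They are the last 30 bases of the gene on GRCh38, 5′ to 3′ on the gene's strand, as placed by the start of the listed DoG, and capitals mark AATAAA, the usual polyadenylation signal. The windows are chr20:43647270-43647299 (plus strand) for IFT52, chr5:134193978-134194007 (minus) for PPP2CA and chr3:150585987-150586016 (plus) for EIF2A. These downstream genes end at chr20:43716466-43716495 (MYBL2), chr5:134148935-134148964 (SKP1) and chr3:150630407-150630436 (SELENOT).
IFT52: tcttttatcaaagacataattaactctcaa
MYBL2: aaaattgcctctctctttgtgctggtctgg
PPP2CA: agctggtatataaatttgaggaaagaaaaa
SKP1: atggtggctgtcgtgtccaccaacagcgta
EIF2A: gtgagaaAATAAActtctttgtttaaacca
SELENOT: cattgtgaaAATAAActttgattaagctga
AATAAA stood in the windows of EIF2A and SELENOT. Neither AATAAA nor ATTAAA, its commonest variant, was found in those of IFT52, MYBL2, PPP2CA and SKP1, read on the gene's strand. Over all 3505 DoG genes, 52.9% of the windows held at least 1 of these 2 hexamers, against 2 of these 6.

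IFT52 (ENSG00000101052.14) occupies 43590937 to 43647299 on the plus strand of chromosome 20. Its DoG was listed in 4 of the 16 libraries, all under DoG-inducing conditions. The 2nd-step lengths were 525 and 540 kb, and hiAGPC gave 15 and 10 kb. The ratio of the mean lengths was 42.6, and the longest region, 43647300 to 44187299, measured 9.58 times the length of the gene. No aqueous library and no control library listed it.

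PPP2CA (ENSG00000113575.14) occupies 134194035 to 134226073 on the minus strand of chromosome 5. Its 2nd-step regions measured 473 and 475 kb, against 15 kb in both hiAGPC libraries, a ratio of 31.6. It was the one of the 3 that aqueous RNA also showed, at 10 kb in replicate 1 of the conventional preparation and of the SERIPH 1st-step fraction. The longest region, 133718935 to 134193977, was 14.8 times the length of the gene.

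EIF2A (ENSG00000144895.13) occupies 150546678 to 150586016 on the plus strand of chromosome 3. Its 2nd-step regions measured 400 and 465 kb, against 15 kb in both hiAGPC libraries, a ratio of 28.8, and no other library listed it. The longest region, 150586017 to 151051016, was 11.8 times the length of the gene. Of the 3, EIF2A differed most between its 2nd-step replicates, by 65 kb (lengths 400 and 465 kb, mean 432.5 ± 46.0 kb, SD, n = 2).

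The DoGs just outside the threshold of 25 belonged to VPS4A, an ATPase that disassembles ESCRT-III filaments, at a ratio of 22.9, to UBA2, a subunit of the SUMO-activating enzyme, at 20.2, and to ZNF503-AS2, an antisense lncRNA, at 19.2. Over the 1290 shared DoGs the median ratio was 1.36, and 23 DoGs had a ratio over 10. Since 3 DoGs exceed 25 by definition, their rank carries no further information.

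The long regions ran far beyond the neighbouring genes. The longest IFT52 region covered, on its own strand, the whole of MYBL2, a transcription factor of cell cycle genes, from 19.7 to 69.2 kb past IFT52, and the whole of TOX2, an HMG-box protein gene, from 267.6 to 422.3 kb. Annotated genes on the same strand filled 38.4% of it, and their exons filled 1.60%. The PPP2CA region covered SKP1, an adaptor of SCF ubiquitin ligases, which starts at 17.0 kb, VDAC1, a channel of the outer mitochondrial membrane, from 189.0 to 222.1 kb, and C5orf15 from 225.3 to 238.5 kb. Here 80.7% of the region lay outside any same-strand gene and 3.92% was exon. The EIF2A region covered SELENOT, a selenoprotein of the endoplasmic reticulum, from 16.9 to 44.4 kb, and after it only lncRNA genes, among them ERICH6-AS1, SIAH2-AS1 and part of CLRN1-AS1. Same-strand genes filled 72.3% of it, with 3.54% exon.

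**Figure D1:**
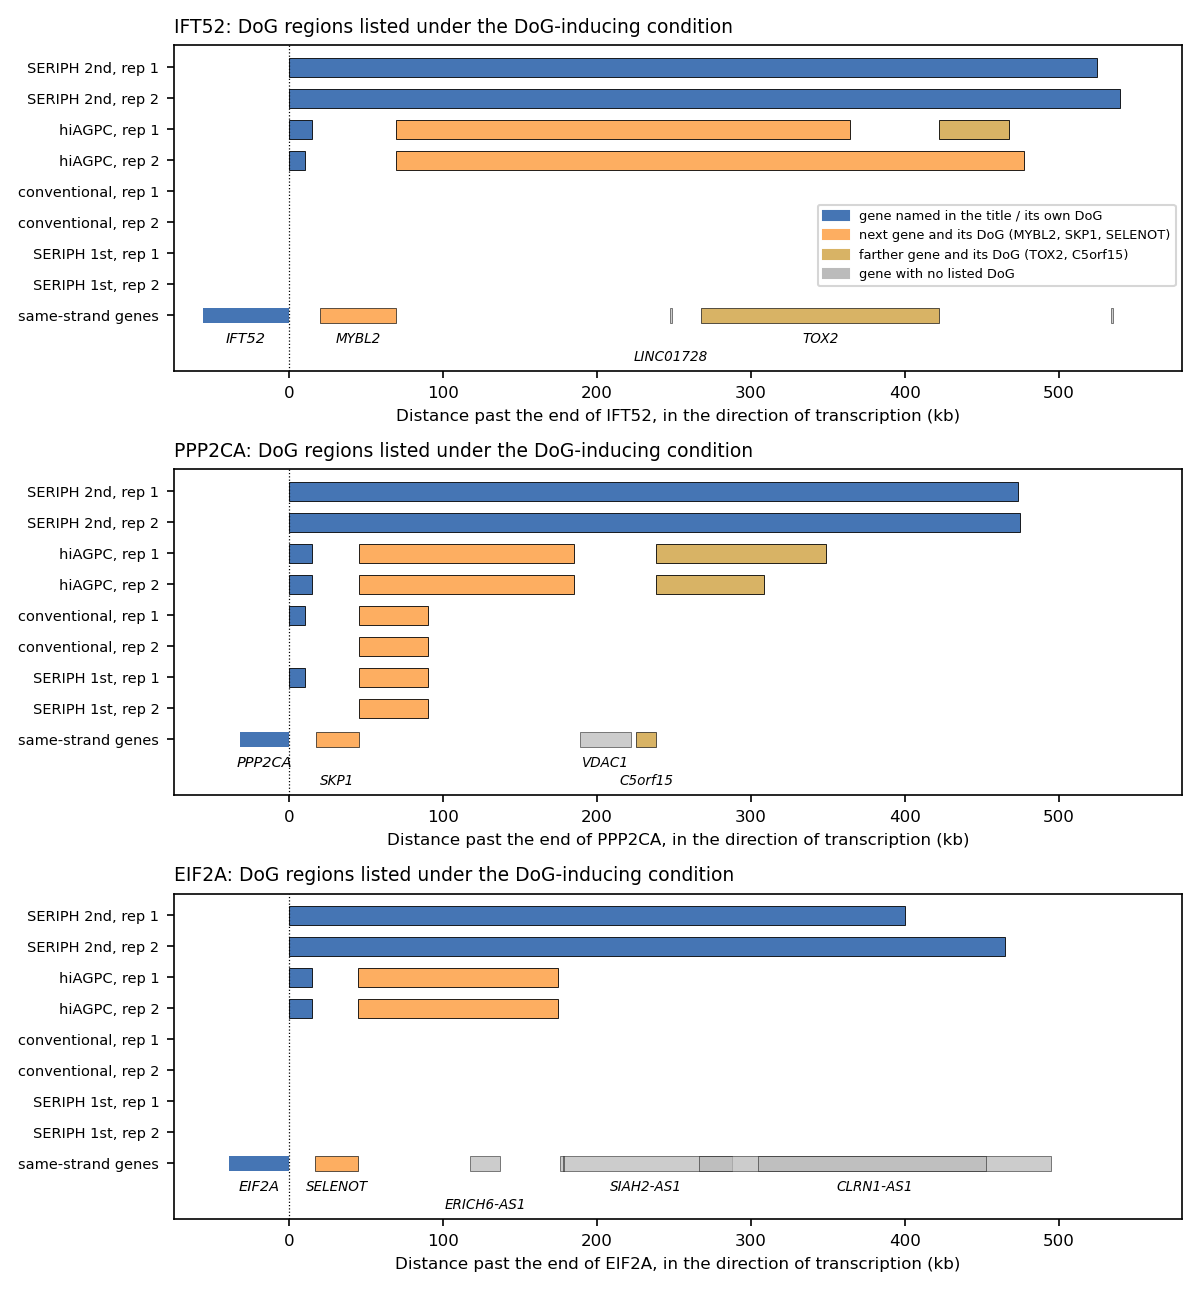
DoG regions listed under the DoG-inducing condition in 8 libraries, plotted by distance past the end of IFT52, PPP2CA and EIF2A (x axis, kb, in the direction of transcription), with the same-strand protein-coding and lncRNA genes in the bottom row of each panel (ENSG00000272772, which overlaps PPP2CA and SKP1, is left out). Each library has a row. The SERIPH 2nd-step rows hold 1 unbroken region of the first gene, and the hiAGPC rows hold a region of 10 or 15 kb followed by regions listed for MYBL2, TOX2, SKP1, C5orf15 or SELENOT.

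The territories were not empty in hiAGPC, as the map of regions by library shows, because regions of the downstream genes filled part of each. The share was largest for IFT52 and smallest for EIF2A. Under DoG-inducing conditions, hiAGPC listed a MYBL2 DoG of 295 kb in replicate 1 and 408 kb in replicate 2, with a TOX2 DoG of 45 kb in replicate 1. It listed a SKP1 DoG of 140 kb in both replicates with a C5orf15 DoG of 110 and 70 kb, and a SELENOT DoG of 130 kb in both. The 2nd-step libraries of the same condition listed no DoG for any of these 5 genes.

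The share of the longest territory that hiAGPC assigned to the member itself was 2.78% and 1.85% for IFT52 and 3.16% in both replicates for PPP2CA. For EIF2A it was 3.23% in both. Counting every listed same-strand DoG, hiAGPC covered 65.7% and 77.4% of the IFT52 territory and 55.8% and 47.4% of that of PPP2CA, and 31.2% of that of EIF2A in both replicates. Adding the bodies of the genes whose DoGs were listed brought these to 85.7% and 86.6%, 64.5% and 56.0%, and 37.1%.

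The farthest listed base was therefore much closer between the preparations than the lengths were. For IFT52 it lay 467 and 477 kb past the gene in hiAGPC, against 525 and 540 kb in the 2nd-step fraction, a ratio of the means of 1.13. For PPP2CA it lay at 348 and 308 kb in hiAGPC, a ratio of 1.44. EIF2A kept the largest difference, with 174 kb in both hiAGPC libraries and a ratio of 2.48, which left 291 kb of its territory beyond any hiAGPC region. Part of the difference thus remained in every territory when regions were counted regardless of the gene they were listed under, and it was smallest for IFT52, whose length ratio was the highest.

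In the aqueous preparations the PPP2CA territory was again the exception. A SKP1 DoG of 45 kb was listed in both conventional and both 1st-step libraries under DoG-inducing conditions. In control cells the SKP1 DoG measured 20 and 25 kb in the 2nd-step fraction and 15 kb in replicate 1 of the 1st-step fraction, with none in the other control libraries. The territories of IFT52 and EIF2A held no listed same-strand region in any conventional, 1st-step or control library.

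Each hiAGPC region of the members stopped short of the next gene, taken here and below as the first same-strand protein-coding or lncRNA gene that starts past the end of the member. This leaves out RPL27AP, a pseudogene 5.22 kb past IFT52 that both IFT52 regions ran over, and ENSG00000272772, a protein-coding gene model that begins within PPP2CA, spans SKP1 in part and holds both PPP2CA regions. Regions were built from windows of 5 kb, and those of PPP2CA and EIF2A ended 2.01 kb before SKP1 and 1.86 kb before SELENOT, so the next window would have entered that gene in both replicates. The IFT52 regions ended 4.72 and 9.72 kb before MYBL2. Of the 1290 shared DoGs, 225 (17.4%) had both hiAGPC regions end at the last whole window before the next same-strand protein-coding or lncRNA gene, PPP2CA and EIF2A among them.

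All 3 members had both 2nd-step regions run into such a next gene while neither hiAGPC region reached it. The same held for 131 of the 1290 shared DoGs (10.2%), whose median length ratio was 3.25. In 35 of these 131 (26.7%), as for the members, both hiAGPC libraries listed a DoG for a gene that the 2nd-step region crossed. When every region was ended at the first such gene, the ratios became 1.58 for IFT52, 1.13 for PPP2CA and 1.12 for EIF2A, and no shared DoG exceeded 25 (highest 12.2, median 1). This cut limits a 2nd-step region to the gap before the next gene, so with these hiAGPC lengths the ratios could not have been higher. VPS4A and UBA2 fell to 1.11 and 1.05 in the same way. Beyond MYBL2, SKP1 and SELENOT the lists of the 2 preparations differed in the gene under which regions were listed and in how far they reached.

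**Figure D2:**
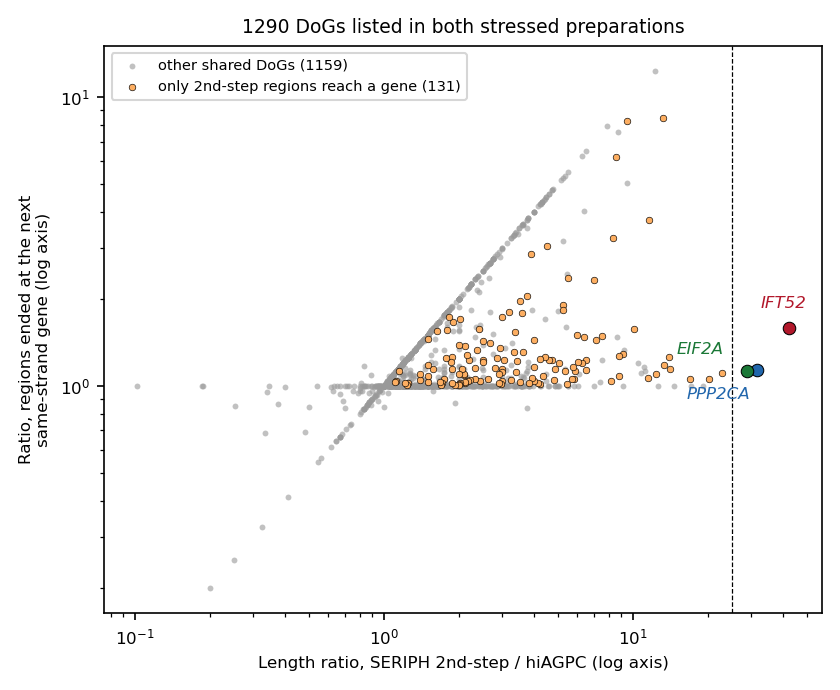
Length ratio of the SERIPH 2nd-step fraction over hiAGPC under the DoG-inducing condition for 1290 DoGs (x axis, log scale) against the same ratio with every region ended at the next same-strand protein-coding or lncRNA gene (y axis, log scale). Each point is a DoG, orange points are the 131 whose 2nd-step regions alone reach such a gene, and the dashed line marks a ratio of 25. IFT52, PPP2CA and EIF2A lie right of the line, at 42.6, 31.6 and 28.8, and between 1.12 and 1.58 on the y axis.

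Across the lists, a gene whose end lay inside another gene's region was almost never listed in the same library. Per library 0 to 5 genes, at most 0.25% of those listed, had their end inside the region of another same-strand gene, and in 11 of 16 libraries there were none. The table of FPKM followed the same pattern over the whole series. All 368 DoG genes without an FPKM row that could be placed had their end inside another gene's region, against 5 of 3127 genes with a row. MYBL2, TOX2, SKP1, C5orf15 and SELENOT had no row, so their own DoG levels were not analysed here. VDAC1 had no row either, but no library listed a DoG for it. How the caller assigns such RNA was not tested.

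The FPKM of a DoG was given over 1 region per gene, which for IFT52, PPP2CA and EIF2A was as long as the longest listed region to within 1 bp. It therefore measured the same 540, 475 and 465 kb in every library, also where no region was listed, downstream genes included. Each value depends on the other reads of the library, and in these bulk samples fewer cells with the RNA cannot be told apart from less RNA per cell.

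For IFT52, the FPKM in control cells was 0.41 and 0.38 in the conventional preparation, 0.58 and 0.44 in the 1st-step fraction, 0.24 and 0.26 in the 2nd-step fraction and 0.31 in each hiAGPC library. Under DoG-inducing conditions it was 0.69 and 0.71 in the conventional preparation, 0.83 and 0.84 in the 1st-step fraction, 1.74 and 1.70 in hiAGPC, and 2.82 and 2.89 in the 2nd-step fraction. No group overlapped its neighbour in rank, and the stressed 2nd-step fraction (2.86 ± 0.0495, SD, n = 2) stood 11.4 times above the control 2nd-step fraction (0.25 ± 0.0141), the lowest of the 8 groups.

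For PPP2CA, the control values were 0.87 and 0.90 in the conventional preparation, 0.90 and 0.92 in the 1st-step fraction, 0.70 and 0.68 in hiAGPC, and 0.38 in both 2nd-step libraries. Under DoG-inducing conditions they were 1.18 and 1.21 in conventional RNA, 1.35 and 1.09 in 1st-step RNA, 1.94 and 1.88 in hiAGPC, and 2.90 and 3.01 in 2nd-step RNA. The conventional and 1st-step libraries overlapped each other within each condition, and all other neighbours in rank were separate. PPP2CA had the highest control levels of the 3, above 94.5% of all DoGs in the conventional preparation, although none of the 8 control libraries listed a region for it.

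For EIF2A, the control values were 0.15 and 0.16 in both the conventional and the 1st-step libraries, 0.14 in both hiAGPC libraries and 0.10 in both 2nd-step libraries. Under DoG-inducing conditions they were 0.28 and 0.24 in conventional RNA, 0.21 and 0.22 in 1st-step RNA, 1.10 and 1.12 in hiAGPC, and 1.46 and 1.5 in 2nd-step RNA. EIF2A was the lowest of the 3 in all 8 groups, and its control groups differed by only a few steps of the rounding of 0.01. Its stressed 2nd-step mean was 14.8 times its control 2nd-step mean, the steepest of the 3, against 7.78 times for PPP2CA.

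**Figure D3:**
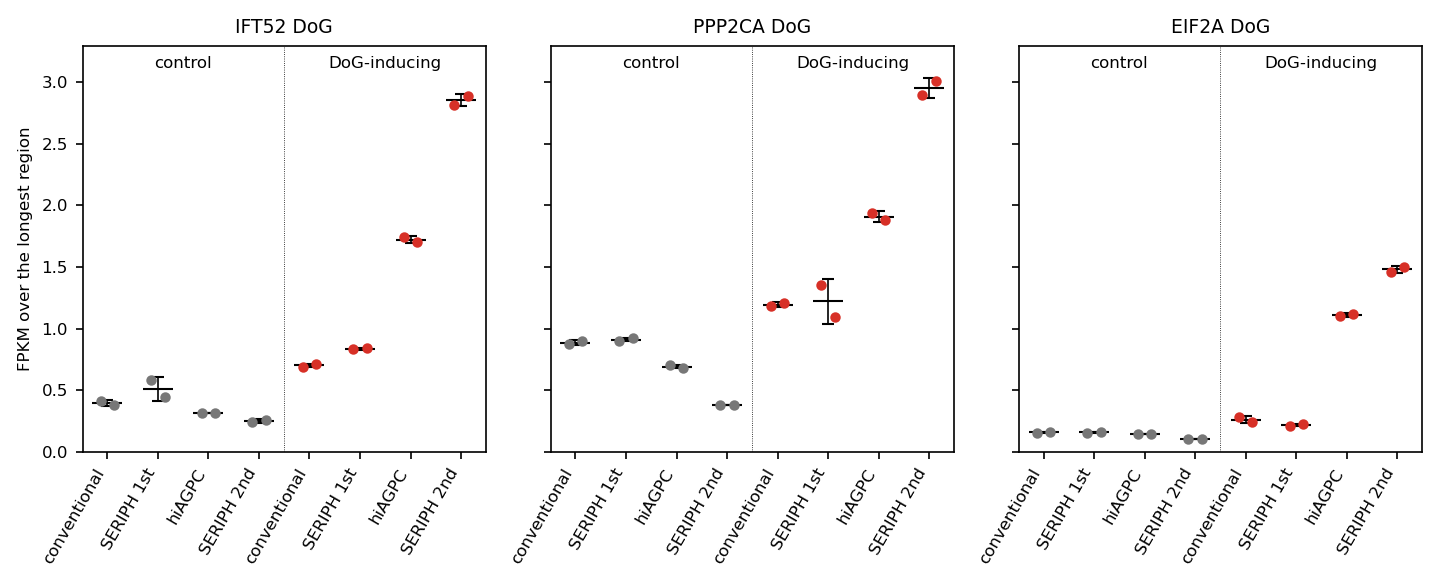
FPKM of the IFT52, PPP2CA and EIF2A DoGs over the longest region (y axis) in each of the 16 libraries, by preparation (x axis), in grey for control and red for the DoG-inducing condition. Points are the 2 replicates, and bars show the mean ± SD. In control cells the SERIPH 2nd-step fraction is the lowest group for all 3, and under the DoG-inducing condition it is the highest, at 2.86, 2.96 and 1.48.

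The same order of groups thus held for all 3 DoGs at both ends. In control cells the 2nd-step fraction was the lowest, hiAGPC the next and the aqueous preparations the highest, and under DoG-inducing conditions the 2nd-step fraction was the highest and hiAGPC the next. With libraries centred on their medians this order under stress did not hold for any of the 3. On the log2 scale IFT52 and PPP2CA were then at −0.32 and −0.77 between the SERIPH fractions. Between hiAGPC and the conventional preparation they were at −0.26 and −0.81. EIF2A turned negative between the 2nd-step fraction and hiAGPC. Both 2nd-step libraries lay below both hiAGPC libraries in control cells and above them under stress for 3 of 3 members, against 7.96% of the 3139 DoGs with FPKM. The same held for 3 of 3 between the 2nd- and the 1st-step fraction, against 9.65%, and between hiAGPC and the conventional preparation, against 8.16%. The stressed libraries in this pattern are those that chose the members, so nothing is read from these counts.

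The stress effect in the aqueous preparations compared no library of the rule. It was tested with limma on log2(FPKM + 0.1), with Benjamini-Hochberg adjustment over all 3139 DoGs. The fit pooled the spread over all 16 libraries, so the libraries of the rule enter each SE and p-value. The FPKM region of each member also matched its longest listed region, which came from a library of the rule. The tests are thus not independent of the rule. A DoG was called where the adjusted p was under 0.05 and the fold change was at least 1 on the log2 scale in either direction. For conventional RNA the log2 fold change was 0.69 (SE 0.0976, adjusted p = 3.94e-05) for IFT52, 0.39 (SE 0.0869, adjusted p = 0.00127) for PPP2CA and 0.50 (SE 0.0726, adjusted p = 5.47e-05) for EIF2A, and in each case both stressed libraries exceeded both control libraries. None reached the fold threshold, so 0 of 3 members were called, where 22.2% of all DoGs were called higher. By the adjusted p alone 3 of 3 were higher, as were 57.9% of all DoGs, and at an unadjusted p under 0.05 the count of members was also 3.

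In the 1st-step fraction the log2 fold change was 0.63 for IFT52 (adjusted p = 9.36e-05), 0.38 for PPP2CA (adjusted p = 0.00169) and 0.30 for EIF2A (adjusted p = 0.00219) in the same fit. Again 0 of 3 were called, against 21.8% of all DoGs called higher, and 3 of 3 were higher by the adjusted p alone, against 57%. PPP2CA did not pass when the 4 libraries of the comparison were fitted alone (adjusted p = 0.105), and its value was 0.24 without replicate 1 of the stressed 1st-step fraction. The median log2 fold change over all DoGs was 0.44 in the conventional preparation and 0.43 in the 1st-step fraction, so PPP2CA and, in the 1st-step fraction, EIF2A lay slightly below it. When each library was centred on its median, PPP2CA and EIF2A turned to −0.16 and −0.06 in the conventional preparation and to −0.12 and −0.19 in the 1st-step fraction, and only IFT52 kept a positive value (0.14 and 0.13). By the limma adjusted p alone 0 of 3 were then higher in either preparation (IFT52 0.25 and 0.281), and EIF2A in the 1st-step fraction was lower (adjusted p = 0.0168).

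The difference of the stress effect between the conventional preparation and the 1st-step fraction was 0.07 for IFT52, 0.02 for PPP2CA and 0.19 for EIF2A on the log2 scale, with 95% intervals of −0.23 to 0.37, −0.25 to 0.28 and −0.03 to 0.42. The limma adjusted p values were 0.920, 0.983 and 0.571. Of all 3139 DoGs 0 (0%) were called for this difference, 306 had an unadjusted p under 0.05, and the members had 0 of 3 by either measure.

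In control cells the contrasts between preparations likewise compared no library of the rule. They came from the same fit of all 16 libraries and the same FPKM regions, so they are not independent of the rule either. Between the 2nd- and the 1st-step fraction, PPP2CA fell by 1.07 on the log2 scale (SE 0.0869, limma adjusted p = 1.16e-06), from 0.91 ± 0.0141 to 0.38 ± 0 FPKM (SD, n = 2). It was the 1 member of 3 called in any tested comparison, where 3.28% of all DoGs were called lower. A pseudocount of 1 in place of 0.1 ended this call (−0.47), and it held in every fit that left out a library. IFT52 was at −0.79 (adjusted p = 3.39e-05) and EIF2A at −0.35 (adjusted p = 0.00174), so by the adjusted p alone 3 of 3 were lower, against 10.3% of all DoGs lower and 36.2% higher. IFT52 missed 0.05 when these 4 libraries were fitted alone (0.0521). The median over all DoGs was 0.17 higher in the 2nd-step fraction, and with each library centred on its median IFT52 was called as well, at −1.03.

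Reads over the exons of the genes crossed enter these values where they were counted, which the sources used here do not state. The PPP2CA region held 18.0 kb of protein-coding exons of other same-strand genes, a larger share of the region than in 90.3% of DoGs. IFT52 held 6.01 kb, a larger share than in 83.7% of DoGs, and EIF2A 4.10 kb, a larger share than in 82.6%. Such exons lay in the regions of 614 DoGs (19.6%), of which 8.63% were called lower in the 2nd-step than in the 1st-step fraction, against 1.98% of the 2521 DoGs with none. In this comparison the median log2 fold change was 0.115 for DoGs with such exons and 0.183 for those with none. The part of these exons in the PPP2CA value was not tested.

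The 2nd-step fraction and hiAGPC are the preparations that the rule compared, there by length under stress. In control cells no library listed a region of a member, so only FPKM over the fixed region was compared. The log2 fold change was −0.23 for IFT52 (adjusted p = 0.108), −0.72 for PPP2CA (adjusted p = 0.000114) and −0.26 for EIF2A (adjusted p = 0.0187) in limma. None was called, where 1.47% of all DoGs were called lower and 0.86% higher. By the adjusted p alone 2 of 3 were lower, against 6.53% lower and 20.1% higher over all DoGs, and leaving out any 1 of the 4 libraries took EIF2A past 0.05 (0.0761 to 0.0887). None of the 3 was thus higher in the control 2nd-step fraction, where the median over all DoGs was 0.11.

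Between hiAGPC and the conventional preparation in control cells, the log2 fold change was −0.27 for IFT52 (adjusted p = 0.0971), −0.32 for PPP2CA (adjusted p = 0.0316) and −0.09 for EIF2A (adjusted p = 0.552) in limma. Again 0 of 3 were called, as were 0 DoGs of the whole table in this direction (0%), with 162 lower at an unadjusted p under 0.05 and 1.08% called higher. By the adjusted p alone 1 of 3 was lower, PPP2CA, against 2.01% lower and 11.5% higher over all DoGs, and it did not pass when any 1 of the 4 libraries was left out (0.110 to 0.178).

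In the libraries that the rule used, the fitted values are given without a test. From control to the DoG-inducing condition, the log2 difference in the 2nd-step fraction was 3.08 for IFT52, 2.67 for PPP2CA and 2.98 for EIF2A, beside a median of 2.38 over all DoGs. In hiAGPC it was 2.15, 1.35 and 2.33, beside 1.86. Between the 2nd-step fraction and hiAGPC under DoG-inducing conditions it was 0.70, 0.60 and 0.38, beside 0.52. The 3 DoGs chosen for length ratios above 25 thus differed by ratios of 1.66, 1.55 and 1.33 in FPKM over the same territory, and EIF2A lay below the median DoG. EIF2A was also highest of the 3 between hiAGPC and the conventional preparation under stress (1.75, median 1.40) and PPP2CA lowest (0.63). Between the 2nd- and the 1st-step fraction under stress the values were 1.66, 1.22 and 2.33, beside a median of 1.99. After centring the sign also turned for PPP2CA under stress in hiAGPC (−0.57) and for EIF2A between the 2nd-step fraction and hiAGPC under stress (−0.10). All 3 members kept a positive stress effect in the 2nd-step fraction (0.83, 0.42 and 0.73).

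**Figure D4:**
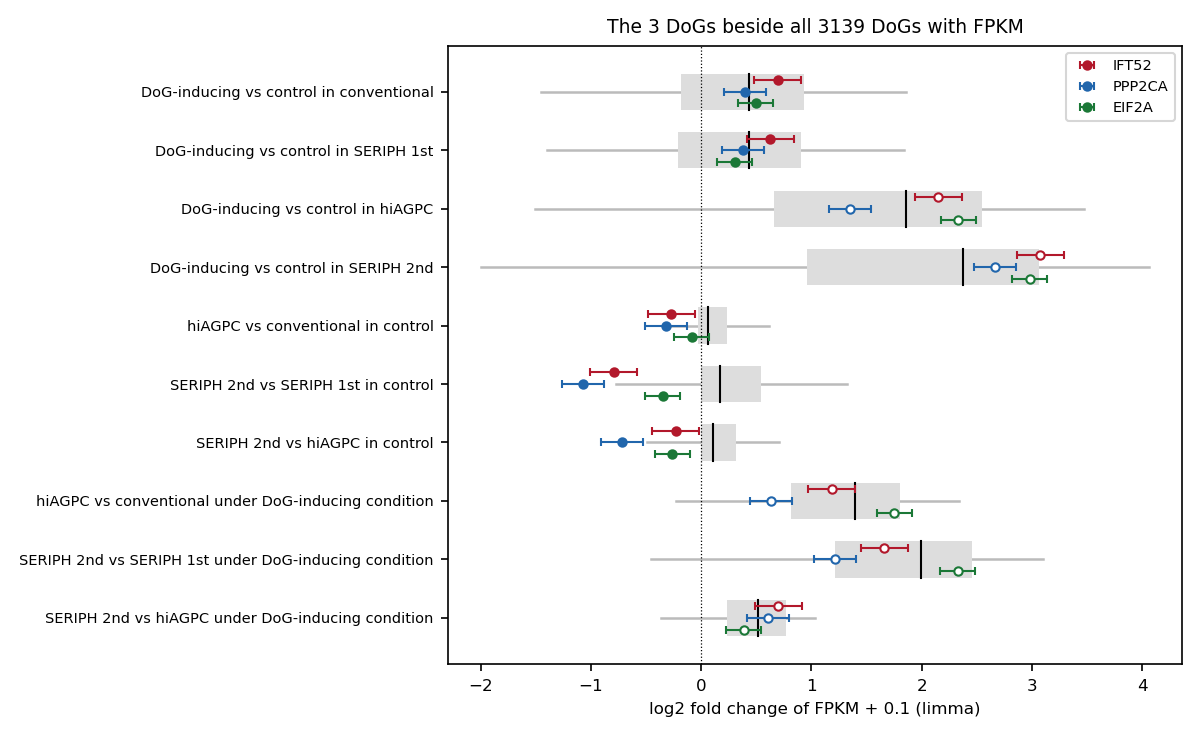
Log2 fold changes of FPKM + 0.1 (x axis) for IFT52, PPP2CA and EIF2A in 10 comparisons (y axis), with 95% intervals from limma. Filled points were tested and open points are descriptions, since the rule used their libraries. Grey boxes and lines span the middle 50% and 90% of all 3139 DoGs, and black bars are their medians. The 3 DoGs lie below the median in the comparisons of preparations in control cells and to its right for the DoG-inducing condition in the 2nd-step fraction.

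The DoGs whose FPKM ran most like each member across the 16 libraries were taken by Pearson's r of log2(FPKM + 0.1). For IFT52 they were SLC16A1, a monocarboxylate transporter (r = 0.996), PUM2, an RNA-binding repressor (0.995), and RPS3, a ribosomal protein (0.995). For PPP2CA they included XRCC5, the Ku80 subunit of DNA end joining (0.984), and CFL1, an actin-severing protein (0.981). For EIF2A they were NAA15, a subunit of an N-terminal acetyltransferase (0.998), CDV3 (0.997) and ZNF180, a zinc finger protein (0.997). These values share libraries and the difference between the conditions, and the median r over all other DoGs was already 0.906, 0.829 and 0.932. Among themselves the members had r = 0.964 (IFT52 and PPP2CA), 0.958 (IFT52 and EIF2A) and 0.910 (PPP2CA and EIF2A).

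Partners and related factors of the 3 proteins were counted over 3 lists. The 21 subunit names of intraflagellar transport complex B included aliases, such as IFT25 and HSPB11, and so stood for fewer genes. Of these names 3 had a listed region: IFT52, IFT25 and TTC26. IFT25 had 25 kb in 1 of the stressed 2nd-step libraries and none in stressed hiAGPC. TTC26 had 10 kb at most and none in stressed hiAGPC or 2nd-step libraries. None of the 3 was called in any tested comparison. Of 25 names of PP2A subunits and regulators, 8 had a region and 7 had FPKM, and PPP2CA between the SERIPH fractions in control cells was the 1 call (list median −0.30 on the log2 scale, 0.17 over all DoGs). The scaffold gene PPP2R1A had stressed regions of 40 and 35 kb in the 2nd-step libraries and of 35 kb in both hiAGPC libraries, and the regulatory gene PPP2R5A had 70 kb in both and 70 and 75 kb, so neither shared the long extension. PPP2R2A, another regulatory gene, had 230 and 500 kb against 20 and 30 kb in hiAGPC.

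Of 22 names for the delivery of initiator tRNA and its regulation (EIF2B and EIF2AK genes included), 9 had a region and FPKM. EIF1 (log2 fold change 1.55, SE 0.107), EIF2S1, the alpha subunit of eIF2 (1.28, SE 0.0722), and EIF1B (1.11, SE 0.0907) rose in the conventional preparation (limma adjusted p = 3.63e-07 or below), where EIF2A stayed under the fold threshold. They rose in the 1st-step fraction too, by 1.48, 1.34 and 1.15. In both comparisons 3 of 9 were called higher and 0 lower, where 22.2% and 21.8% of all DoGs were called higher. The list medians of 0.54 and 0.45 lay near the medians of 0.44 and 0.43 over all DoGs. EIF2S3, the gamma subunit of eIF2, was higher in the 2nd-step than in the 1st-step fraction of control cells, by 1.06 (SE 0.0966, limma adjusted p = 3.05e-06), where EIF2A was at −0.35. EIF5, a partner of eIF2, had a region of 370 kb in both preparations under stress, shorter than every 2nd-step region of the members and of the same length in hiAGPC.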

How the data were processed

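The processed files held DoG regions for 16 libraries and FPKM for 3139 DoGs. Per the labels and the methods of the study, the authors trimmed reads with fastp 0.25.0, removed ribosomal DNA reads with Bowtie2 2.5.4, used STAR 2.7.11b with GRCh38 and GENCODE v49 to align the remainder (unique reads only), and called DoGs per library with ARTDeco (minimum length 10000 bp, windows of 5000 bp, minimum coverage 0.5) on named protein-coding and lncRNA genes. The deposited FPKM values were computed by the authors over 1 region per gene and rounded to 0.01. The reads used for scaling are not given in the sources used here, FPKM holds no read counts, and only a nominal depth is stated for the study, so the depth per library and its counting error are unknown. No per-sample column was left unassigned (0).

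Gene positions, strands and exons were taken from GENCODE v44, which precedes the authors' release and uses the same build, and Ensembl identifiers were matched without version. PPP2CA ends 57 bp before its DoG start in v44, and IFT52 and EIF2A end at it. Regions were converted to 1-based positions. A length ratio is the mean length in both stressed SERIPH 2nd-step libraries over that in both stressed hiAGPC libraries. FPKM was fitted with limma 3.58.1 (R 4.3.3) as log2(FPKM + 0.1), which understates changes of low values, in 1 model of all 16 libraries with an intensity trend, and the model was tested on simulated data. Tables were handled with Python 3.11.15, pandas 2.3.3, numpy 2.4.6, scipy 1.17.1 and pysam 0.24.0, and drawn with matplotlib 3.10.9.

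The members, gene lists and tests were chosen with earlier results of these data known. The genes named are the members, the same-strand genes their regions cross (2 pseudogenes of PPP2CA, a small RNA and a pseudogene of IFT52, and unnamed or minor lncRNAs only counted), the 3 DoGs most like each member (1 is not reported here), the 3 just outside the threshold, and called members of 3 pathway lists. The other members of those lists named with region lengths were chosen after their values were seen, as were the counts of exons, of last windows and of regions in the territory. The alternatives tried were other pseudocounts, a filter on mean FPKM, centring, a replicate block, no trend, the 4 libraries of a comparison alone, each library left out, and other ways to measure length. Two-sided p-values rest on the spread between the 2 replicates of a group, pooled over the 8 groups. limma also drew this spread toward the trend over all DoGs.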

Additional observations from a re-analysis of the deposited data

Results flagged for a closer look

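For all 3 DoGs the order of preparations was opposite in the 2 conditions, with every library of one preparation below the other in control cells and above it under DoG-inducing conditions. With each library centred on its median the stressed sign turned for EIF2A between the 2nd-step fraction and hiAGPC (−0.10), and for IFT52 and PPP2CA between the SERIPH fractions (−0.32 and −0.77) and between hiAGPC and the conventional preparation (−0.26 and −0.81). The difference between the conditions was not tested, because the stressed libraries chose the members. Each value below is the log2 difference between the preparations under stress minus that in control cells, on log2(FPKM + 0.1). For the 2nd-step fraction against hiAGPC it was 0.93 for IFT52, 1.32 for PPP2CA and 0.65 for EIF2A, where 7.96% of all DoGs had the same order without overlap. Between the 2nd- and the 1st-step fraction it was 2.45 for IFT52, 2.29 for PPP2CA and 2.68 for EIF2A, against 9.65% of all DoGs. Between hiAGPC and the conventional preparation it was 1.46 for IFT52, 0.95 for PPP2CA and 1.84 for EIF2A, against 8.16%, and for EIF2A the control groups were only 0.01 FPKM apart at their closest.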

How the results depend on the processing

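The count of 3 members over 25 times longer was 3 with either replicate left out, with the shortest over the longest region and with merged replicates. It was 0 when regions ended at the next same-strand protein-coding or lncRNA gene or, an alternative chosen after seeing the data, at a gene of any kind. With these hiAGPC lengths that 0 was fixed in advance, since the cut limits a 2nd-step region to the gap before the gene. Without the fold threshold, also chosen later, the members called were 3 for stress in the conventional preparation, 3 for stress in the 1st-step fraction, 2 for the 2nd-step fraction against hiAGPC, 1 for hiAGPC against the conventional preparation and 3 between the SERIPH fractions in control cells. The last count was 0 with a pseudocount of 1 and 2 with centring, against 1, and the other alternatives changed no count of members called. Centring turned the stress effect to −0.16 (PPP2CA) and −0.060 (EIF2A) in the conventional preparation and to −0.12 and −0.19 in the 1st-step fraction, and the PPP2CA difference between them to −0.042. With each library left out, that difference ranged from −0.10 to 0.23 for IFT52 and from −0.13 to 0.16 for PPP2CA, and turned negative for IFT52 without replicate 1 of the control 1st-step fraction. Over single members and tested comparisons, 196 of the alternative fits kept the direction and the call, 9 reversed, 1 lost the call and 1 gained it.

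Over all DoGs, centring changed the calls for stress from 697 higher and 345 lower to 270 and 614 in the conventional preparation, and from 683 and 333 to 279 and 583 in the 1st-step fraction. Between the SERIPH fractions in control cells it changed them from 344 higher and 103 lower to 188 and 158, and between the 2nd-step fraction and hiAGPC the higher calls went from 27 to 5. A pseudocount of 1 left 28 and 3, 30 and 2, 13 and 13, and 0 and 4 in these 4 comparisons, and a pseudocount of 0.01 gave 1543, 1497, 847 and 131 higher. Between hiAGPC and the conventional preparation, 34 higher and 0 lower became 0 higher at a pseudocount of 1 and 108 and 4 at 0.01. The difference of stress effects, with 0 calls, reached 21 higher and 10 lower in single fits that left out a library.

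The paper states that conventional and hiAGPC extractions were run side by side on the same samples, and both SERIPH fractions come from a single lysate. The preparations may thus be paired within a condition. Same-numbered libraries did not deviate together (correlations from −0.10 to 0.14 over 28 pairs of groups, median 0.0056). Within a condition the range was −0.07 to 0.06 over 12 pairs, and the numbers were not treated as pairs. A replicate block changed no call of a member, and moved no count over all DoGs by more than 1 (PPP2CA between the SERIPH fractions −1.07, 1 member called). This block was a single term over both conditions, so pairing within a condition was not fitted. The limits are 2 replicates per group, an unknown depth per library, values rounded to 0.01, regions built from windows of 5 kb, and FPKM regions that include the downstream genes. Not all region lengths were multiples of 5 kb, as for PPP2CA at 473.468 and 475.043 kb in the stressed 2nd-step libraries.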
